A study of Homo sapiens with 5 samples.

Results

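The peaks of open chromatin on human chromosome 20 were taken from the table of the 80% portion, which listed 4784 of them among 158342 peaks in all. They were chosen by position alone, as every peak whose chromosome was given as chr20, and the peaks themselves had been called by the authors from the same ATAC counts, so the presence of a count in a peak is no finding. All 4784 peaks held a count, and none was removed. On the same chromosome the table listed 964 of 36601 genes, whose RNA was measured in the same nuclei.

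Cells of the lung adenocarcinoma lines H2228, H1975, A549, H838 and HCC827, all established lines grown separately without a drug, were frozen and mixed, and nuclei were captured with the 10x Multiome kit. This kit reads the nuclear RNA, as unique molecular identifiers (UMIs), and the DNA cut by a transposase in open chromatin (ATAC) under one barcode. The droplets were divided into an 80% and a 20% portion, with 1 RNA and 1 ATAC library each, so there were no replicates and no difference below carries a test. The labels speak of 9700 nuclei in total and 16000 captured, while the tables held 6557 barcodes for the 80% and 1286 for the 20% portion, of which 159 were shared.

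Chromosome 20 is a small chromosome with a short arm, 20p, and a gene-rich long arm, 20q. Gains of 20q recur in carcinomas, and the arm holds genes studied for that reason, such as AURKA (a mitotic kinase), ZNF217 (a transcriptional repressor), BCL2L1 (an inhibitor of apoptosis) and TPX2 (a spindle assembly factor). The short arm holds PCNA (the sliding clamp of DNA replication), JAG1 (a Notch ligand) and MACROD2 (a hydrolase that removes ADP-ribose, encoded by a very long gene). An ATAC count at a site depends both on how open the site is and on how many copies of it a nucleus holds, and both enter the values below in a way that cannot be told apart with these data.

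The following sequences are the central 300 bases of 6 peaks, read from the plus strand of hg38. Of the 9 peaks described below as restricted to a cluster, the 5 that hold a match to one of 4 motifs are shown, so that those letters can be read in place, and the other 4 held none. The last sequence belongs to the peak with the most counts. Capitals mark matches, on either strand, to the letters TGANTCA (AP-1), GGAATG (TEAD), TGTTTAC (FOX) or GGGCGGG (SP/KLF). A match is a description of the letters, not a bound site.

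CFAP61 intron peak, chr20:20073230-20073529: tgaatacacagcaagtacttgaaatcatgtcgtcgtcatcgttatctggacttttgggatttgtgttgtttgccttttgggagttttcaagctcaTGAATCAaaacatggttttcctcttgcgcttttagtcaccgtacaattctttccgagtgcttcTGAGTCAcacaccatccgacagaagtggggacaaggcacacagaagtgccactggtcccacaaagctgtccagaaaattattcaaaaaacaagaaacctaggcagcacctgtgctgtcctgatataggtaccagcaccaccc
PAK5 intron peak, chr20:9594343-9594642: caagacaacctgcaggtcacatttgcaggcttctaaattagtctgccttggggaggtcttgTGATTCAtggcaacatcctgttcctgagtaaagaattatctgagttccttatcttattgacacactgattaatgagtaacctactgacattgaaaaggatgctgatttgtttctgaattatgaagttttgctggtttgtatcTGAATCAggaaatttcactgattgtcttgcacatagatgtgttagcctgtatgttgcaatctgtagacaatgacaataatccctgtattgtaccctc
GNAS-AS1 start peak, chr20:58850744-58851043: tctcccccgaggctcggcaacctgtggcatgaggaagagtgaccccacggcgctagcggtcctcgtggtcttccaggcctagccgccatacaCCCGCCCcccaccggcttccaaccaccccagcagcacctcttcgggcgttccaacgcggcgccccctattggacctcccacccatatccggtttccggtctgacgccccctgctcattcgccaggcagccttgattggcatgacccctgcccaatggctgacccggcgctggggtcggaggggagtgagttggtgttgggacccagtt
Long noncoding RNA exon peak, chr20:10761242-10761541: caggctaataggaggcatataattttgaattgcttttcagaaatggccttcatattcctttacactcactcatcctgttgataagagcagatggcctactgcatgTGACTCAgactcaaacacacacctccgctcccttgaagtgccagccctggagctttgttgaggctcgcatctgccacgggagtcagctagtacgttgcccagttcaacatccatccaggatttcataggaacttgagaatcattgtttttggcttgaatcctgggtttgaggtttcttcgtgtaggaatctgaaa
MACROD2 intron peak, chr20:16021056-16021355: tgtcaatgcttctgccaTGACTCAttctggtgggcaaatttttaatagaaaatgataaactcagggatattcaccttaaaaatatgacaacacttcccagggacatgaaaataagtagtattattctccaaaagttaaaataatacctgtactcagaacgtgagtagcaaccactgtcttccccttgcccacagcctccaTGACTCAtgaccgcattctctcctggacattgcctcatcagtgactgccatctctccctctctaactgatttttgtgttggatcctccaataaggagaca
HM13-AS1 start peak, chr20:31572940-31573239: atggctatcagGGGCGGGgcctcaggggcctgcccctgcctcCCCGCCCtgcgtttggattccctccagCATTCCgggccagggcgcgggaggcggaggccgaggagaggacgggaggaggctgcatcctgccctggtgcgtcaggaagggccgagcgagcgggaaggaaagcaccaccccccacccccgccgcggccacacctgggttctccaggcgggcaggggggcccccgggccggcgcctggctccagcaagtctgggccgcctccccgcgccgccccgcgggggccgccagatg

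The CFAP61, PAK5 and MACROD2 sequences held 2 AP-1 matches each, and the noncoding RNA exon sequence held 1. The GNAS-AS1 sequence held 1 SP/KLF match. The HM13-AS1 sequence held 2 SP/KLF matches and 1 TEAD match. Over the central 300 bases of all 4784 peaks, the AP-1 letters occurred in 30.5%, the TEAD letters in 22.5%, the FOX letters in 5.12% and the SP/KLF letters in 10.3%.

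The nuclei were divided into 5 clusters from the RNA of genes outside chromosome 20, so the cluster borders used no chromosome 20 value. Cluster 0 held 2482 nuclei (37.9%), cluster 1 held 1460 (22.3%), cluster 2 held 1452 (22.1%), cluster 3 held 835 (12.7%) and cluster 4 held 328 (5.0%). Cluster 1 was A549-like: the summed level of its 6 markers was 11183 CPM (counts scaled to a common total) there and 270 to 1329 elsewhere. ALDH1A1, a retinal dehydrogenase, stood at 5369 CPM in cluster 1, but ALDH3A1 was at 906 there and at 649 in cluster 0. Cluster 4 was HCC827-like: EGFR, SEC61G, LANCL2 and VOPP1 summed to 13412 CPM there and to 583 to 1131 elsewhere. For the other 3 lines no markers had been fixed, so clusters 0, 2 and 3 stay numbers. Of 9 markers of blood, connective tissue and vessel cells, PTPRC, CD3E, LYZ, COL3A1, DCN and VWF were below 1 CPM in every cluster. CD68 was at 13.1 to 44.9 CPM, highest in cluster 4, and PECAM1 at 1.24 to 8.79 CPM, highest in cluster 0. COL1A1 reached the highest level of the list, at 243 CPM in cluster 0 and 18.7 to 74.6 elsewhere, and the list summed to 266 CPM in cluster 0 and to 38 to 117 elsewhere.

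The chromosome 20 peaks were 335 to 1292 bases wide, with a median of 884, and covered 6.42% of the chromosome. Together they held 2084104 of 63920767 ATAC counts, and the chromosome 20 genes held 2379525 of 95455518 UMIs. The median nucleus had 292 ATAC counts in these peaks and 319 UMIs on these genes. The median peak was seen in 84.5 nuclei, with 165 counts in all, while the peak seen most often was found in 2853 nuclei, or 43.5%. The 10% of peaks with the most counts held 52.1% of the counts. A total of 922 peaks lay within 1000 bp of an annotated transcript start (19.3%, against 21.1% of all peaks), and these held 47.9% of the chromosome 20 counts. Their median GC content was 59.1%, and that of the 3862 other peaks was 47.1%. Of the nonzero values in these peaks, 90.0% were even numbers, so intervals for ATAC values treat 2 counts as 1 fragment. Intervals of shares, CPM and log2 differences are 95% intervals and cover counting error only.

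The arms differed in how they were spread over the clusters. The border between 20p and 20q was taken as the widest gap between neighbouring peaks of the chromosome, called the centromere gap here. No annotated centromere was used. The 20q peaks took 3.81% of the ATAC counts of cluster 2 (95% interval 3.79 to 3.83). The share was 1.74% in cluster 0 (1.74 to 1.75), 2.17% in cluster 1 (2.15 to 2.18), 2.32% in cluster 3 (2.31 to 2.33) and 2.24% in cluster 4 (2.22 to 2.26). Cluster 2 was thus above all others and cluster 0 below all others on 20q, with no overlap of the intervals. As a log2 difference, in which the share of a cluster is divided by the mean of the shares in the remaining clusters, 20q stood at 0.85 in cluster 2 and at -0.60 in cluster 0. Clusters 1, 3 and 4 were at -0.22, -0.10 and -0.16. With the median of the remaining shares as the base, cluster 1 was at -0.07, cluster 3 at 0.07 and cluster 4 at 0.00, while clusters 2 and 0 were at 0.79 and -0.39.

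On 20p the order of the clusters was a different one. The 20p peaks took 1.31% of the ATAC counts in cluster 1 (1.30 to 1.31), 1.20% in cluster 3 (1.19 to 1.21) and 1.16% in cluster 2 (1.15 to 1.17). They took 0.971% in cluster 4 (0.957 to 0.985) and 0.812% in cluster 0 (0.808 to 0.817). The log2 differences were 0.33 in cluster 1, 0.17 in cluster 3, 0.12 in cluster 2, -0.21 in cluster 4 and -0.51 in cluster 0. Cluster 0 was therefore low on both arms, and cluster 2 was high mainly on 20q.

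RNA of the chromosome 20 genes followed nearly the same order on 20q, with clusters 1 and 4 exchanged. The 612 genes of 20q took 2.68% of the UMIs in cluster 2 (2.68 to 2.69), 1.76% in cluster 3, 1.66% in cluster 1, 1.64% in cluster 4 and 1.37% in cluster 0 (1.37 to 1.38). The log2 differences of 20q RNA were 0.74 in cluster 2, -0.06 in cluster 3 (0.09 with the median as the base), -0.17 in cluster 1, -0.19 in cluster 4 and -0.49 in cluster 0. The 352 genes of 20p stood at 0.28 in cluster 1, 0.17 in cluster 3, 0.15 in cluster 2, -0.23 in cluster 4 and -0.44 in cluster 0. In each cluster and arm the RNA difference had the sign of the ATAC difference.

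**Figure D1:**
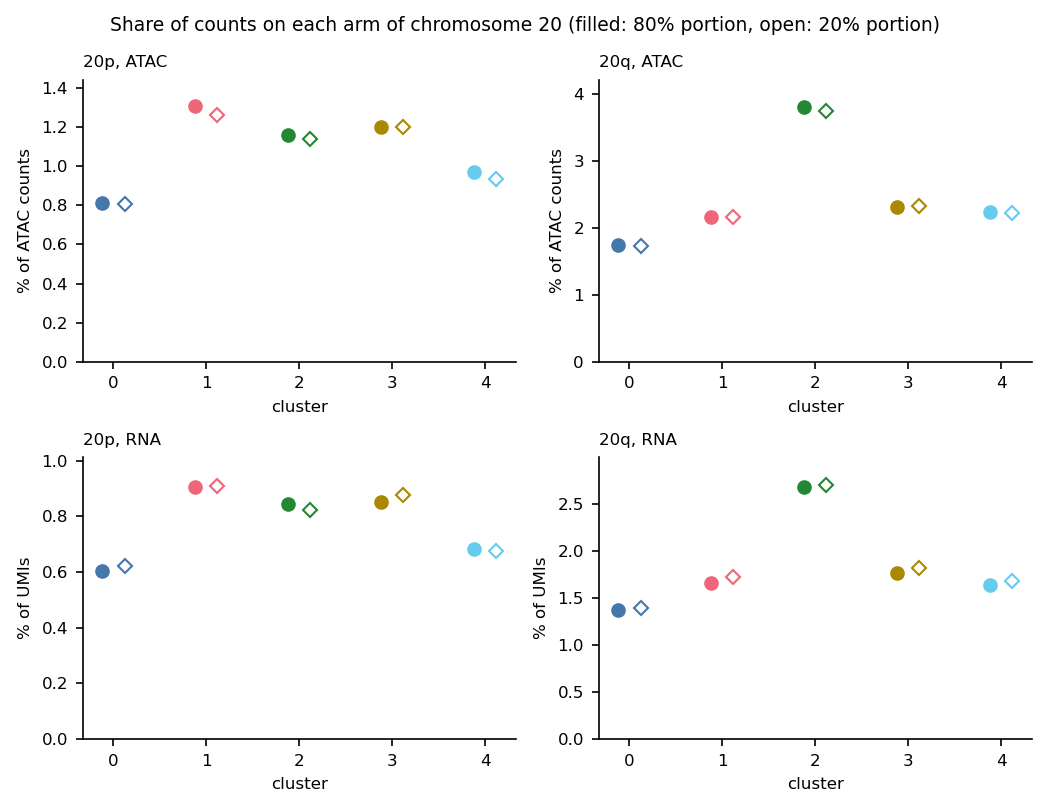
Share of each cluster's counts on 20p and 20q, in percent of ATAC counts (top) and of UMIs (bottom), for clusters 0 to 4; filled circles are the 80% portion, open diamonds the 20% portion, and bars the 95% counting intervals, mostly smaller than the symbols. On 20q cluster 2 stands at 3.81% of ATAC counts and 2.68% of UMIs, above every other cluster in both portions.

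The 20% portion, with its own peak calls and mostly other barcodes, gave nearly the same shares. Its 20q peaks stood at 0.83 in cluster 2 and -0.60 in cluster 0 on the log2 scale, and without the shared barcodes at 0.82 and -0.60. The 20p peaks stood at 0.31 in cluster 1 and -0.50 in cluster 0. Over 30 windows and 5 clusters, the ATAC log2 differences of both portions had a median absolute difference of 0.05, and the largest was 0.49. The windows at 14 to 16 Mb and 28 to 30 Mb, which hold the widest ATAC differences described below, had no value in the 20% portion. Both portions came from the same mixture of cells, so this comparison covers the libraries and not the cultures.

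Set beside the other chromosomes, chromosome 20 had the widest spread of ATAC shares over the clusters. As a whole it spanned 1.21 on the log2 scale, from -0.57 in cluster 0 to 0.64 in cluster 2, the largest of 23 chromosomes, and chromosome 22 followed at 1.04. In RNA it spanned 1.05, as did chromosome 22. The median log2 difference over all 2 Mb windows of the genome was 0.04, -0.11, -0.11, -0.05 and -0.02 for ATAC in clusters 0 to 4. Relative to those medians, 20q stood at 0.95 in cluster 2 and -0.64 in cluster 0, and 20p at 0.44 in cluster 1 and -0.56 in cluster 0.

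Windows of 2 Mb showed how these differences were laid out along the arms. Of 33 windows, 32 had at least 5 peaks and 100 ATAC counts in each cluster, and 29 had at least 3 genes and 100 UMIs in each cluster. A window was counted as higher or lower where it differed by at least 1.5-fold from the mean of the other clusters. The shares of all such windows in the genome are given beside each count.

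**Figure D2:**
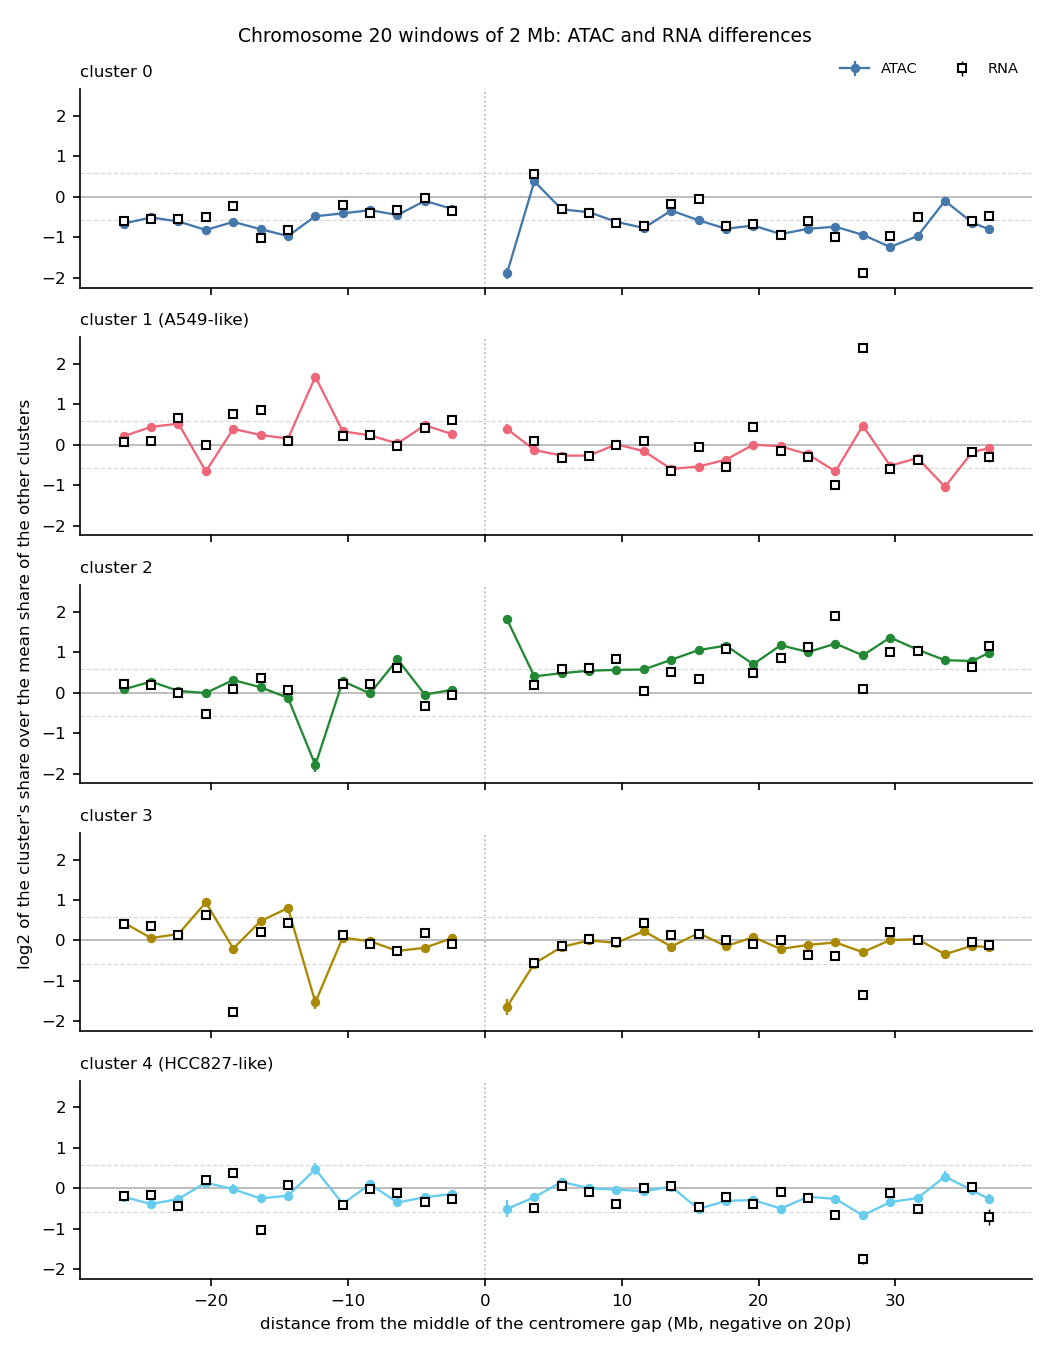
Log2 difference of each 2 Mb window of chromosome 20 (share of the cluster divided by the mean of the remaining shares) against the distance of the window from the middle of the centromere gap in Mb; coloured circles are ATAC, open squares RNA, bars 95% counting intervals, and dashed lines mark 1.5-fold. In cluster 2 the ATAC values of the 20q windows lie above 0 throughout, from 0.40 to 1.81, and in cluster 0 all ATAC values but 1 lie below 0.

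In cluster 2, 15 of 32 ATAC windows were at least 1.5-fold higher (46.9%, against 10.3% of the windows of the genome) and 1 was lower (3.12%, against 18.5%). All 15 but 1 lay on 20q. The profile was not flat: the difference was 0.40 at 30 to 32 Mb, 0.48 at 32 to 34 Mb and 0.57 at 38 to 40 Mb, then 1.16 at 44 to 46 Mb and 1.21 at 52 to 54 Mb. The window at 56 to 58 Mb reached 1.36 (± 0.04), the second highest of the cluster. This window holds PMEPA1, an inhibitor of TGF-beta signalling, which carried 38.7% of its UMIs. Beyond it the difference was 0.78 at 62 to 64 Mb and 0.98 in the last, partial window. On 20p the window at 20 to 22 Mb stood out at 0.82, and the lowest windows were 14 to 16 Mb, at -1.79 (± 0.18), and 12 to 14 Mb, at -0.13.

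RNA in cluster 2 was higher in 11 of 29 windows (37.9%, against 11.1%) and lower in 0 (against 18.5%). The RNA difference was 0.18 at 30 to 32 Mb, 1.07 at 44 to 46 Mb and 1.01 at 56 to 58 Mb. At 52 to 54 Mb it was 1.88, and 0.81 without TSHZ2, the gene with the most UMIs in that window. At 54 to 56 Mb it was 0.10, while the ATAC difference there was 0.92. Without CYP24A1, which carried 62.8% of the UMIs of that window, the RNA difference became 1.16, close to that of the peaks.

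Cluster 0 was low along most of the chromosome. Of its ATAC windows, 19 were at least 1.5-fold lower (59.4%, against 12.3%) and 0 were higher (against 8.74%). Its RNA windows were lower in 13 cases (44.8%, against 11.7%) and higher in 0 (against 11.0%). The base of these calls is the mean of the other clusters, which the high share of cluster 2 raises on 20q. With the median as the base, cluster 0 went from -0.60 to -0.39 on 20q as a whole, short of 1.5-fold. On 20p it went from -0.51 to -0.54. Over all clusters that base changed the calls from 45 to 41 in ATAC and from 39 to 31 in RNA. The calls of cluster 0 alone were not counted with it. The lowest windows were 28 to 30 Mb, at -1.89 (± 0.13), and 56 to 58 Mb, at -1.24 (± 0.04). Next to the top window, those at 22 to 24 Mb and at 60 to 62 Mb came closest to the other clusters, both at -0.10.

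The one window where cluster 0 was above the mean of the others was 30 to 32 Mb on proximal 20q, with 0.38 (± 0.03) in ATAC and 0.57 in RNA. In bins of 250 kb, cluster 0 stood at 0.45 (± 0.03) from 31.5 to 31.75 Mb and at 0.46 (± 0.06) from 31.75 to 32 Mb. In the neighbouring bin, from 32 to 32.25 Mb, it was at -0.44 (± 0.09), so the sign differed between neighbouring bins. The bin before, from 31.25 to 31.5 Mb, was at 0.03 (± 0.18), with 11 peaks. Cluster 2 was also above 0 in these bins, at 0.34 and 0.58, and cluster 3 was below it, at -0.56 and -0.59, while cluster 1 was at -0.09 and -0.64. In the 20% portion the window stood at 0.42 in cluster 0.

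RNA of cluster 0 was at 0.58 in the bin from 31.5 to 31.75 Mb but at 0.09 in the next, where clusters 4 and 2 were above it at 0.41 and 0.34. In the window, ID1, an inhibitor of helix-loop-helix transcription factors, was at 831 CPM in cluster 0, 773 in clusters 1 and 2, 368 in cluster 3 and 319 in cluster 4. BCL2L1 was at 114 CPM in cluster 0, 93.7 in cluster 1 and 38.4 to 71.0 in the others. TPX2 was at 273 CPM in cluster 0 and 250 in cluster 4, and at 112 to 169 in the others. ID1 carried 53.1% of the UMIs of the window, yet the RNA difference of cluster 0 without it was again 0.57. The peak with the most counts on the chromosome, chr20:31572623-31573556, lay in this window, in an intron of HM13 and an exon of HM13-AS1. It held 4538, 1107, 1371, 828 and 426 counts in clusters 0 to 4, which is 154, 97.9, 147, 83.8 and 109 CPM.

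In cluster 1, 1 ATAC window was higher (3.12%, against 7.08%) and 4 were lower (12.5%, against 15.7%). In RNA 5 windows were higher (17.2%, against 10.6%) and 3 lower (10.3%, against 13.2%). Counts of this size were near those of the genome, so the windows of cluster 1 were read one by one. The highest were 14 to 16 Mb, at 1.68 (± 0.10), and 4 to 6 Mb, at 0.52 (± 0.03), the window of PCNA. The lowest were 60 to 62 Mb, at -1.04 (± 0.12), and 6 to 8 Mb and 52 to 54 Mb, both at -0.66. At 54 to 56 Mb the RNA difference was 2.39 and the ATAC difference 0.47, and without CYP24A1 the RNA difference was 0.03.

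In cluster 3, 2 ATAC windows were higher (6.25%, against 7.08%) and 2 lower (6.25%, against 7.54%). In RNA 1 window was higher (3.45%, against 5.04%) and 2 were lower (6.90%, against 11.4%). The highest were 6 to 8 Mb, at 0.94 (± 0.07), and 12 to 14 Mb, at 0.80 (± 0.07), both on 20p, and RNA stood at 0.62 and 0.43 there. The lowest were 28 to 30 Mb, at -1.64, and 14 to 16 Mb, at -1.53. In between, at 8 to 10 Mb, ATAC was at -0.20 while RNA was at -1.76, in a window led by PLCB4, a phospholipase C, without which RNA was at -0.98.

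Cluster 4 had 0 ATAC windows higher (against 7.99%) and 1 lower (3.12%, against 6.78%), and 0 RNA windows higher (against 8.12%) and 4 lower (13.8%, against 9.5%). Its highest windows were 14 to 16 Mb, at 0.47, and 60 to 62 Mb, at 0.29, and its lowest was 54 to 56 Mb, at -0.67. The next lowest were 42 to 44 Mb and 28 to 30 Mb, both at -0.51. With 328 nuclei this cluster carried the widest intervals in most windows, up to ± 0.21.

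Over the 29 windows with both measures, ATAC and RNA differences had the same sign in 29 windows in cluster 0, 25 in cluster 1, 26 in cluster 2, 23 in cluster 3 and 24 in cluster 4. Pearson's r over windows was 0.78, 0.73, 0.79, 0.60 and 0.63 in clusters 0 to 4. Over all windows of the genome it was 0.75, 0.74, 0.74, 0.61 and 0.74. Over the 145 pairs of a window and a cluster it was 0.80 (Spearman's rho 0.87), which placed chromosome 20 in rank 7 of 23 chromosomes. The windows share nuclei, and the 5 differences of a window are set against one another, so these values are descriptions.

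On 20q, most single peaks went the way of the arm in clusters 0 and 2. Among the 1430 peaks of 20q with at least 200 counts, the median log2 difference in cluster 2 was 0.69 and 71.8% were above 0, against a median of -0.29 and 38.0% over all 63818 such peaks of the genome. In cluster 0 the median on 20q was -0.70, with 19.2% above 0, against 0.07 and 53.6% over all peaks. The base was again the mean of the other clusters, which cluster 2 raises on 20q. On 20p, with 687 such peaks, the medians were -0.51 in cluster 0, 0.27 in cluster 1, -0.05 in cluster 2, 0.02 in cluster 3 and -0.35 in cluster 4. Over all such peaks of the genome the medians in clusters 0 to 4 were 0.07, -0.19, -0.29, -0.12 and -0.16. A median below 0 was thus not particular to chromosome 20 in clusters 1 to 4. On 20q clusters 1, 3 and 4 stood at -0.32, -0.19 and -0.24. The 20p median of cluster 2 was below 0, where the sum was at 0.12, but it lay above the median of all peaks in that cluster.

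Single genes showed the same layout. Of 443 genes on chromosome 20 with at least 50 UMIs in some cluster, 304 lay on 20q, and 198 of those had their highest level in cluster 2 (65.1%, against 24.9% of all 16963 such genes). On 20q, cluster 0 was highest for 28 genes (9.21%, against 23.4%), cluster 1 for 23 (7.57%, against 18.8%), cluster 3 for 30 (9.87%, against 17.9%) and cluster 4 for 25 (8.22%, against 15.0%). On 20p, cluster 1 was highest for 46 of 139 genes (33.1%) and cluster 0 for 13 (9.35%). The median log2 difference of 20q genes was 0.67 in cluster 2 and -0.58 in cluster 0, against -0.16 and -0.04 over all genes. Here too cluster 2 raises the base against which cluster 0 is set on 20q. Over 402 genes that had a count in their start peaks and UMIs in each cluster, the RNA difference and the ATAC difference at the start had an r of 0.70, 0.70, 0.66, 0.71 and 0.56 in clusters 0 to 4.

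The shares of single nuclei showed how far the clusters were separated. Among 5855 nuclei with at least 4000 ATAC counts and UMIs, the median 20q share of ATAC counts was 3.82% in cluster 2, with 5% of its nuclei below 3.02%. The medians were 1.69% in cluster 0, 2.13% in cluster 1, 2.28% in cluster 3 and 2.20% in cluster 4. Of the cluster 2 nuclei, 98.2% lay above 2.69%, the 95th percentile of all other nuclei. In RNA 98.4% lay above the same percentile of the others, 2.02% of UMIs. Of the nuclei of cluster 2, 0.551% were doublet calls, against 4.52% to 8.98% in the other clusters, and no doublet calls were removed here.

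**Figure D3:**
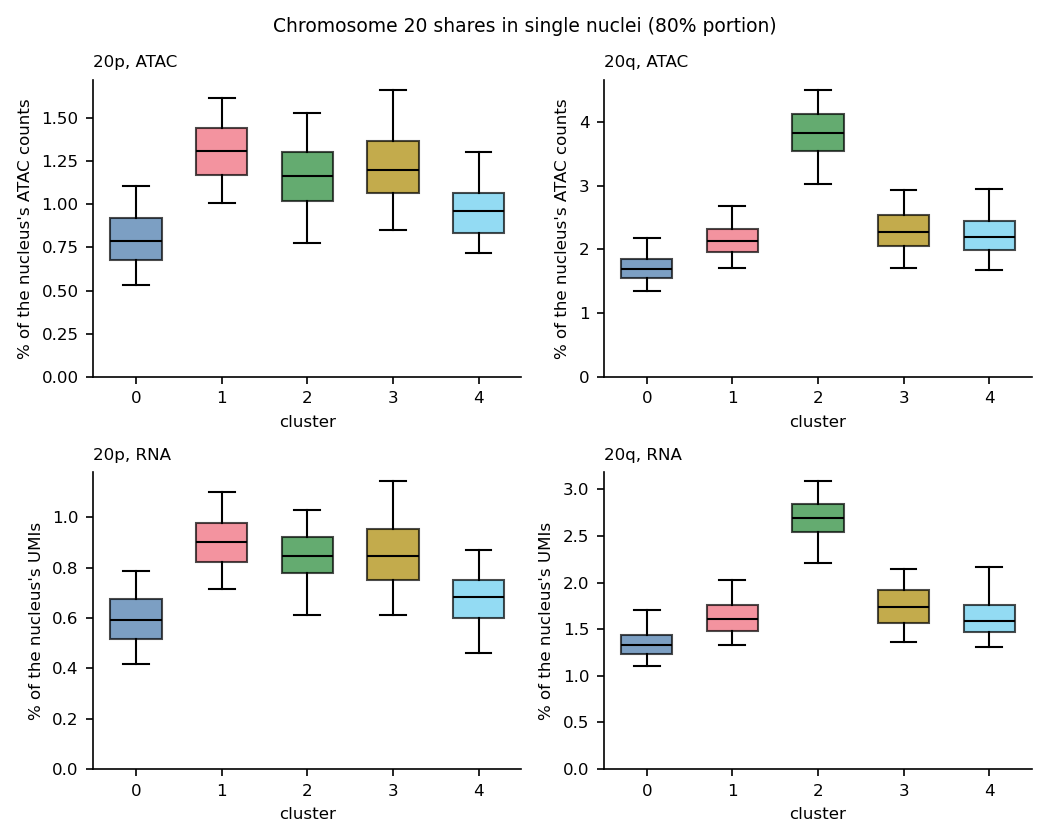
Share of 20p (left) and 20q (right) in the ATAC counts (top) and UMIs (bottom) of single nuclei of the 80% portion, by cluster; boxes show quartiles and medians, and whiskers run from the 5th to the 95th percentile. On 20q the box of cluster 2, with a median of 3.82% of ATAC counts, lies above the whiskers of all others.

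Within a cluster the chromosome 20 shares of nuclei varied more than counting alone gives. The SD of the 20p share over nuclei was 1.05 times the SD that counting would give in cluster 1, for ATAC, but 1.51 times in cluster 0 and 1.68 times in cluster 3. The 20p shares of ATAC and RNA, measured in separate libraries, went together over nuclei with an r of 0.57 in cluster 0 (2267 nuclei) and 0.61 in cluster 3 (756 nuclei), and of 0.07 in cluster 1 (1292 nuclei). Without doublet calls these values were 0.54, 0.61 and 0.06. On 20q the r was 0.56 in cluster 0, 0.42 in cluster 1 and 0.64 in cluster 3, and without doublet calls it was 0.34, 0.22 and 0.61. Clusters 2 and 4 stood at 0.42 and 0.39 on 20p, and at 0.39 and 0.65 on 20q, with all nuclei. In cluster 0 without doublet calls, the ATAC share of 20p up to 12 Mb and the RNA share of the rest of 20p, which have no gene or peak in common, had an r of 0.31. The ATAC share of 20p and the RNA share of 20q had an r of 0.10 there. In clusters 1 to 4 without doublet calls, the r within 20p was -0.01, 0.27, 0.40 and 0.26. The r across the arms was 0.04, 0.22, 0.13 and 0.43. With the assays exchanged, the r within 20p was 0.33, -0.01, 0.22, 0.23 and 0.17 in clusters 0 to 4. The r across the arms was then 0.13, 0.03, 0.30, 0.24 and 0.35. In both pairings the r across the arms was the higher in cluster 4 and the lower in cluster 0, and both were small in cluster 1. In clusters 2 and 3 the r within 20p was the higher in the first pairing and the lower in the second. Nuclei share depth and total counts across these measures, and the part of either in these values was not tested. For chromosome 20 as a whole the r of ATAC and RNA shares was 0.47 in cluster 0, in rank 17 of 23 chromosomes. It was 0.19, 0.50, 0.67 and 0.71 in clusters 1 to 4, in ranks 12, 4, 13 and 7. In each cluster some other chromosome thus had a higher r.

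At a higher resolution cluster 3 was divided into parts of 466 and 369 nuclei, called 3a and 3b here, which differed on 20p as a whole and less on 20q as a whole. The 20p peaks took 1.13% of ATAC counts in 3a and 1.30% in 3b, a log2 difference of 0.20 (0.18 to 0.23), and 20p RNA differed by 0.16 (0.15 to 0.18). On 20q the difference was -0.04 (-0.06 to -0.02) in ATAC and -0.11 (-0.12 to -0.10) in RNA. By window, 3b was above 3a by 0.24, 0.32 and 0.36 from 0 to 6 Mb in ATAC, and by 0.11, 0.22 and 0.16 in RNA. The widest differences in ATAC were -1.19 at 14 to 16 Mb, -0.99 at 60 to 62 Mb and 0.84 at 8 to 10 Mb. RNA differed by 0.27 and 0.26 in the first and last of these. The 20q windows differed in both directions in RNA, by -0.55 at 56 to 58 Mb, -0.50 at 44 to 46 Mb and 0.43 at 52 to 54 Mb, each wider than any 20p window in RNA. Other chromosomes differed more between both parts, for instance chromosome 6, at 0.33 in ATAC and 0.28 in RNA. Doublet calls made up 11.4% of 3a and 5.96% of 3b, and their part in these values was not tested.

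The widest local contrast on 20p fell in MACROD2, at chr20:13995369-16053197 on the plus strand of hg38, 2.06 Mb long and holding 60 of the peaks. At its start, the peak chr20:13994957-13995826 held 1191, 515, 106, 632 and 20 counts in clusters 0 to 4, or 40.4, 45.6, 11.3, 64.0 and 5.10 CPM. Cluster 3 was thus the highest at the start and cluster 4 the lowest. From 0.3 to 0.75 Mb into the gene, 16 peaks summed to 26.1 CPM in cluster 0 and 106 CPM in cluster 1. The same peaks summed to 5.45 CPM in cluster 2 (3.63 to 8.14), 8.81 CPM in cluster 3 (6.47 to 12) and 94.9 CPM in cluster 4 (81.7 to 110). Cluster 4, lowest at the start peak, was thus among the highest in this stretch, and cluster 3 the reverse. Over all 13 peaks from the start to 0.3 Mb the sums were 50.4, 119, 21.2, 81.1 and 26.3 CPM in clusters 0 to 4. Cluster 1 was the highest and cluster 2 the lowest there. From 1.05 Mb to the end, 10 peaks summed to 6.35, 15.3, 6.84, 11.5 and 29.1 CPM, with cluster 3 above clusters 0 and 2. In cluster 4, 62 of the 114 counts of that last stretch lay in 1 peak.

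From 0.75 to 1.05 Mb, 21 peaks summed to 83.7, 175, 34.1, 29.3 and 83.4 CPM in clusters 0 to 4. In the 0.5 Mb before the gene, 21 peaks summed to 68.9, 121, 126, 159 and 112 CPM, so clusters 2 and 3 were at or above the others there. In the 0.5 Mb after its end, 14 peaks summed to 43.3, 58.1, 35.0, 48.8 and 51.0 CPM, with cluster 2 the lowest. The borders of these stretches were chosen after the values were seen. In the 20% portion, 7 peaks from 0.3 to 0.75 Mb gave 27.5, 72.1, 10.7, 8.82 and 65.9 CPM. MACROD2 RNA was at 65.1, 45.6, 2.93, 39.1 and 46.4 CPM in clusters 0 to 4, so RNA was low in cluster 2 but not in cluster 3. In the 20% portion it was at 67.1, 50.4, 5.44, 42.8 and 60.6 CPM.

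**Figure D4:**
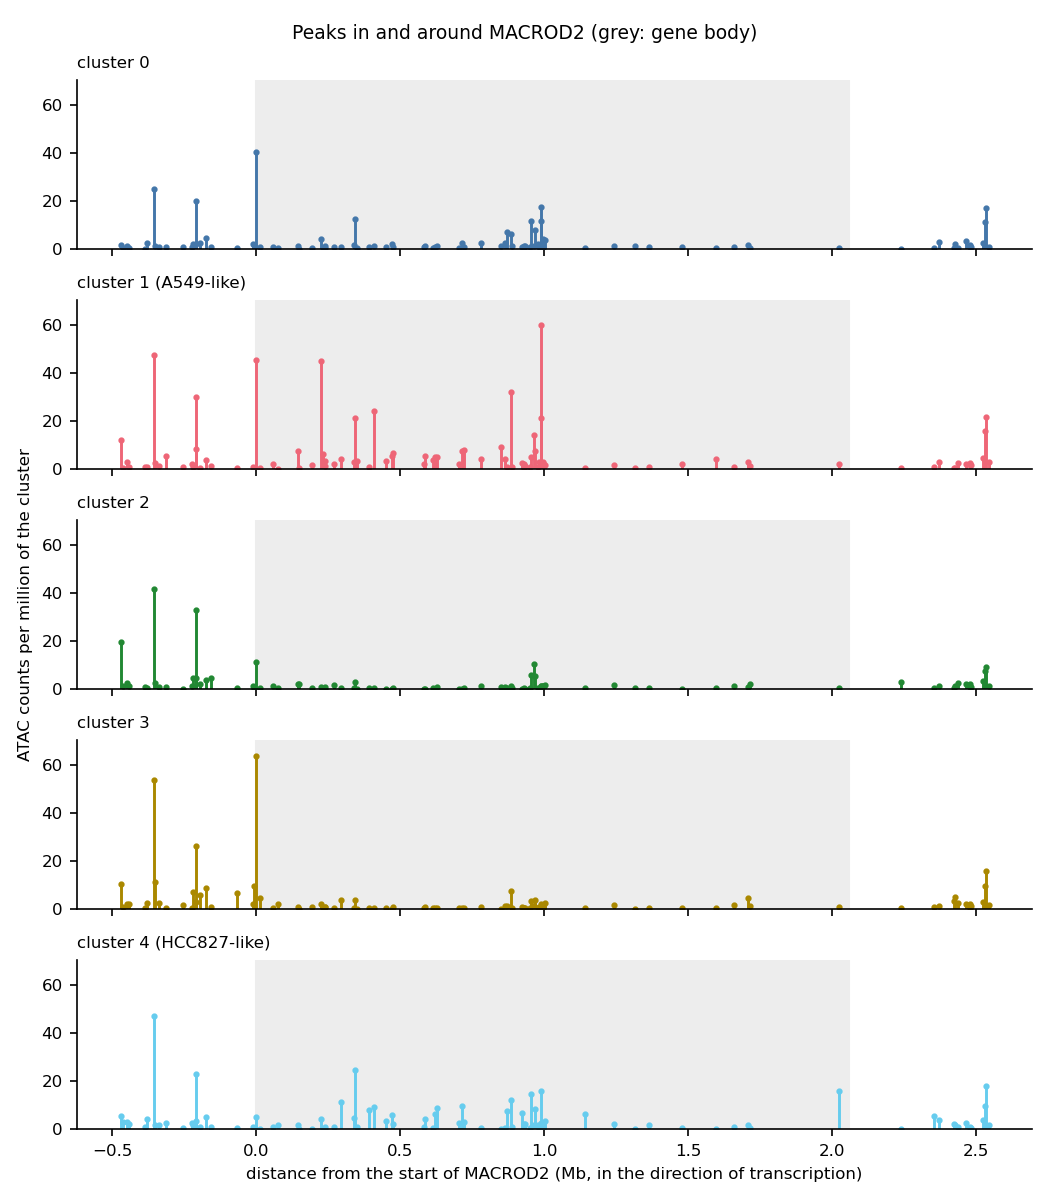
ATAC counts of each cluster, in CPM, in the peaks in and around MACROD2, against the distance of the peak from the start of the gene in Mb; each line and point is a peak, grey marks the gene body, and the panels are clusters 0 to 4. Between 0.3 and 0.75 Mb the 16 peaks sum to 106 CPM in cluster 1 and 94.9 CPM in cluster 4, and to 5.45 and 8.81 CPM in clusters 2 and 3.

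The centromere gap, set from the peaks alone, lay between 26.2 and 28.6 Mb. The peaks just beyond it, counted here with 20q, were unlike the rest of that arm. The window at 28 to 30 Mb held 22 peaks and 6901 counts, with differences of -1.89, 0.39, 1.81, -1.64 and -0.51 in clusters 0 to 4. None of the 22 peaks lay within 1000 bp of a transcript start, and the single listed gene of the window, FAM242B, had 0 UMIs. Sequences near centromeres are rich in repeats, and the part of read placement in these values was not tested.

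Peaks restricted to 1 cluster were counted by a fixed rule, at least 50 counts there and at least 4 times the CPM of the highest other cluster, with that level raised to 3 counts where it was lower. On chromosome 20, where 3044 peaks lay on 20q and 1740 on 20p, 335 peaks passed it. CPM use the whole total of a cluster, so the difference of a whole arm enters the fold. On 20q that difference was 0.85 in cluster 2. Cluster 2 had 203 (4.24% of the peaks, against 1.87% over the genome), of which 169 lay on 20q. Cluster 1 had 62 (1.30%, against 1.4%), with 40 on 20p, and cluster 3 had 52 (1.09%, against 0.884%), with 36 on 20p. Cluster 0 had 13 (0.272%, against 0.988%) and cluster 4 had 5 (0.105%, against 0.225%). Peaks just inside and outside the rule stood at 4.01-fold and 4.0-fold. Of the restricted peaks 10.4% lay near a transcript start, against 19.9% of the others. Clusters with more counts pass the minimum of 50 more easily, so counts should not be ranked between clusters of unlike depth, which ranged from 3921542 ATAC counts in cluster 4 to 29460457 in cluster 0.

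In cluster 2, chr20:58850459-58851329 lay at the start of GNAS-AS1 and in an intron of GNAS, the gene of the stimulatory G protein alpha subunit, whose locus is imprinted. It held 283 counts in cluster 2, at 30.3 CPM (25.6 to 35.8) or 24.9 times the next, and 18, 9, 12 and 0 counts in clusters 0, 1, 3 and 4. GNAS-AS1 RNA was at 17.7 CPM in cluster 2 and 0.207 to 0.812 CPM elsewhere, so peak and transcript were high in the same cluster.

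In cluster 1 the first was chr20:59350993-59351837, between genes and 25001 bp from EDN3, which encodes an endothelin. The closest annotated transcript start was 6359 bp from this peak. The peak held 582 counts in cluster 1 and 65, 8, 19 and 6 in clusters 0, 2, 3 and 4, at 51.5 CPM (45.7 to 57.7), 23.3 times the next. The second, chr20:9594037-9594949, in an intron of the kinase gene PAK5, held 223 counts there and 14, 6, 11 and 2 in the others. Its level in cluster 1 was 19.7 CPM, 17.7 times the next.

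In cluster 3, chr20:10761068-10761715 lay in an exon of a long noncoding RNA and held 125 counts, against 31, 3, 4 and 4 in clusters 0, 1, 2 and 4. chr20:48139075-48139997 lay between genes, 352459 bp from SULF2, and held 139 counts, against 18, 4, 11 and 0. SULF2 was not the closest start, since another annotated transcript start lay 19267 bp away. Both stood 12-fold above the next cluster.

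In cluster 4, chr20:16020739-16021672 lay in an intron of MACROD2 near its end and held 62 counts, against 8, 22, 4 and 7 in clusters 0 to 3. Its level of 15.8 CPM (10.7 to 22.4) was 8.12 times the next. chr20:5363974-5364892, in an intron of a long noncoding RNA, held 51 counts, against 20, 21, 4 and 21, a 6.12-fold difference. In cluster 0, chr20:60058167-60058991 in an exon of LINC02910 held 399 counts, against 7, 22, 6 and 5 in clusters 1 to 4, or 5.76 times the next. chr20:20072997-20073763, in an intron of CFAP61 and within 1000 bp of a transcript start of that gene, held 142 counts, against 10, 2, 4 and 0, or 5.45 times the next. Peaks of the 20% portion overlapped 7 of these 9 peaks, and in all 7 the same cluster had the highest CPM. Neither peak of cluster 4 had an overlap, so the 20% portion gave no value for them. The contrast could be smaller there. The CFAP61 peak stood at 3.76 CPM in cluster 0 and 1.85 CPM in cluster 2, with 23 and 4 counts, which is below the 4-fold rule.

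**Figure D5:**
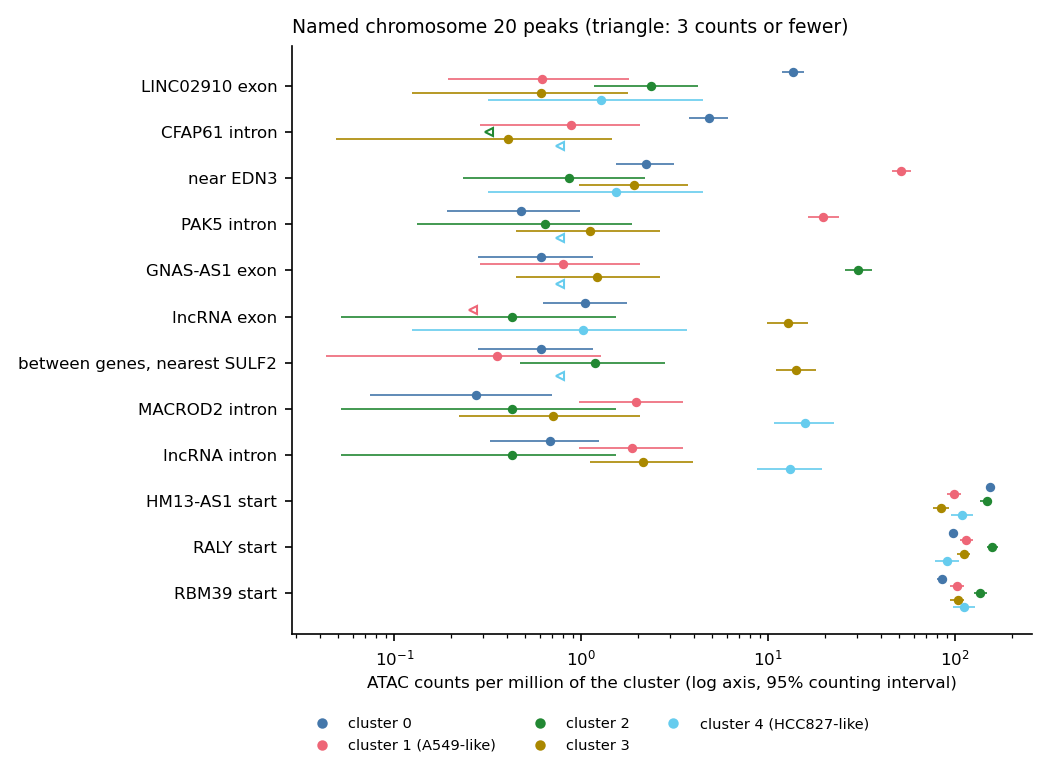
ATAC counts in each cluster, in CPM, on a log axis with 95% counting intervals, for the 9 cluster-restricted peaks and the 3 peaks with the most counts on chromosome 20; open triangles mark 3 counts or fewer and stand at 3 counts. Each of the 9 restricted peaks shown stands apart in 1 colour, for instance at 51.5 CPM in cluster 1 near EDN3, while the HM13-AS1, RALY and RBM39 peaks lie between 83.8 and 158 CPM in all clusters.

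The other peaks with the most counts were gene starts open in all clusters. chr20:33992994-33993860, at the start of RALY, an RNA-binding protein gene, stood at 97.1, 114, 158, 111 and 90.8 CPM in clusters 0 to 4. chr20:35741964-35742865, at the start of the splicing factor gene RBM39, stood at 84.8, 102, 136, 103 and 111 CPM. Cluster 2 was the highest at both, with intervals of 147 to 170 and 126 to 147 CPM that lay above those of clusters 0, 1 and 3.

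Sequence letters differed between the restricted sets. The AP-1 letters TGANTCA occurred in 26 of 52 peaks restricted to cluster 3 (50%), and in 36 of 203 restricted to cluster 2 (17.7%), against 30.5% of all chromosome 20 peaks. In clusters 0, 1 and 4 they occurred in 5 of 13, 13 of 62 and 4 of 5. They are rarer near transcript starts (15.9%) than far from them (34.0%). Among peaks far from starts they occurred in 25.7% of all restricted peaks and in 34.7% of the others. The TEAD letters GGAATG occurred in 67 of the 203 peaks of cluster 2 (33.0%, against 22.5%). The FOX letters TGTTTAC occurred in 10 of the 62 peaks of cluster 1 (16.1%, against 5.12%) and in 0 of the 52 of cluster 3. The antioxidant response letters TGACNNNGC, which can overlap those of AP-1, occurred in 17.7% of the peaks of cluster 1, against 17.6% of all. The SP/KLF letters GGGCGGG and the ETS letters CCGGAAG occurred mainly near transcript starts, in 34.8% and 9.65% of those peaks against 4.48% and 2.10% of the others.

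Restricted genes were counted on both arms, and 304 of the 443 measured genes lay on 20q. Restricted by the same rule on UMIs were 20 of 443 genes in cluster 2 (4.51%, against 2.45% of all genes; 17 on 20q) and 9 in cluster 1 (2.03%, against 1.72%). In cluster 0 there were 4 (0.903%, against 1.59%), in cluster 3 there were 3 (0.677%, against 0.749%), and in cluster 4 there were 0 (against 0.66%). In cluster 1, HNF4A, a nuclear receptor of liver and gut epithelium, was at 31.9 CPM (29.1 to 34.9), against 0.262 to 0.827 elsewhere. BCAS1 was at 31.5 CPM there and at 0.414 to 1.77 elsewhere. HNF4A start peaks stood at 14.2 CPM in cluster 1 and at 0.506 to 1.92 elsewhere, so RNA and peaks were high in the same cluster.

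In cluster 2 the antisense transcript ZBTB46-AS1 was at 78.0 CPM, against 1.24 to 3.38 elsewhere, followed by GNAS-AS1. In cluster 0 DOK5, a docking protein of receptor tyrosine kinases, was at 8.56 CPM, against 0.406 to 0.828, and C20orf197 was at 7.37 CPM, against 0.314 to 0.828. The C20orf197 interval contains the restricted peak of cluster 0 placed above in a LINC02910 exon, so that peak and this RNA mark the same locus. In cluster 3 APCDD1L-DT was at 105 CPM, against 2.84 to 7.52. AL139351.3 was at 10.3 CPM there, with at most 0.378 CPM elsewhere and 0 UMIs in cluster 2. Whether counting used the strand is not stated in the sources used here, so reads of antisense transcripts and of the genes they overlap may be mixed.

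Among 18 genes of 20q studied in amplicons, all measured, 7 were highest in cluster 2, 4 in cluster 1, 3 in cluster 4 and 2 each in clusters 0 and 3. Of all 304 measured 20q genes, 65.1% were highest in cluster 2 and 7.57% in cluster 1. For clusters 4, 0 and 3 these shares were 8.22%, 9.21% and 9.87%. The counts of this and the following lists rest on few genes and are descriptions only. The median log2 difference of the list was 0.18 in cluster 2, below that of all 20q genes (0.67), and -0.60 in cluster 0. AURKA was at 109 CPM in cluster 2 and 47.7 to 82.2 elsewhere, and CSE1L, a nuclear export factor, at 209 CPM and 90.7 to 151. ZNF217 ranged only from 70.0 to 96.0 CPM, with cluster 4 the highest, although its start peaks had a log2 difference of 1.04 in cluster 2. SRC, a tyrosine kinase, was at 99.0 CPM in cluster 1 and 11.4 to 16.8 elsewhere, and CYP24A1, which degrades vitamin D, at 888 CPM there and 30.4 to 158 elsewhere. Both were thus highest in a cluster whose 20q share was not.

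Of 13 measured genes from a list drawn up for cell division and replication, 4 were highest in cluster 3 and 3 each in clusters 0 and 2. Of the rest, 2 were highest in cluster 1 and 1 in cluster 4. The 4 of cluster 3 include PSMF1, at 115 CPM there, and no role of it in division or replication is shown here. Over all 16963 measured genes, 23.4%, 18.8%, 24.9%, 17.9% and 15.0% were highest in clusters 0 to 4. The median log2 difference of the list in cluster 2 was -0.60. PCNA was at 423 CPM in cluster 3, 401 in cluster 1 and 225 to 276 in the others. UBE2C, a ubiquitin-conjugating enzyme of mitosis, was at 30.1 CPM in cluster 0 and 102 to 228 elsewhere. Its start peaks had a log2 difference of -3.77 in cluster 0.

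Of 14 measured genes from a list drawn up for lineage and epithelium, 5 were highest in cluster 2, 4 in cluster 1, 3 in cluster 0 and 1 each in clusters 3 and 4. The gene highest in cluster 3 was ESF1, at 139 to 274 CPM over the clusters, and no lineage role of it is shown here. The shares of all measured genes highest in clusters 0 to 4 were 23.4%, 18.8%, 24.9%, 17.9% and 15.0%. The secreted protease inhibitors SLPI and PI3 were at 786 and 12.4 CPM in cluster 2, and at 93.9 to 234 and 1.03 to 3.45 CPM elsewhere. PI3 start peaks stood at 61.3 CPM in cluster 2 and at 2.04 to 8.05 elsewhere. FOXA2, a forkhead factor of endoderm, was at 30.8 CPM in cluster 1, 7.52 to 9.36 in clusters 0 and 3, and 1.41 and 2.69 in clusters 2 and 4.

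Of 13 measured genes of signalling and adhesion, 5 were highest in cluster 1, 4 in cluster 3, 2 in cluster 4 and 1 each in clusters 0 and 2. Beside them stand the shares of all measured genes for clusters 0 to 4, at 23.4%, 18.8%, 24.9%, 17.9% and 15.0%. JAG1 was at 177 CPM in cluster 3, 127 in cluster 1 and 25.4 to 55.1 elsewhere. THBD, which encodes thrombomodulin, was at 36.9 CPM in cluster 0 and 2.35 to 11.2 elsewhere. CDH4, a cadherin gene at 60 to 62 Mb, was at 22, 19.8, 0.837, 3.05 and 24.8 CPM in clusters 0 to 4. FERMT1, an integrin activator, was at 4.24 CPM in cluster 2 and 32.8 to 90.4 elsewhere. CDH4, on 20q, was thus lowest in the cluster that was highest on that arm as a whole, and FERMT1, on 20p, was lowest in the same cluster.

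Of 4 measured genes of imprinted loci, 3 were highest in cluster 2, GNAS at 905 CPM (261 to 431 elsewhere), GNAS-AS1, and L3MBTL1 at 32.9 CPM (3.72 to 10.6 elsewhere). BLCAP was highest in cluster 3, at 56.8 CPM. All 4 lie on 20q, where 65.1% of genes were highest in cluster 2. The tables do not separate parental alleles. Of 5 measured genes from a list of long genes, 2 each were highest in clusters 0 and 4 and 1 in cluster 2. The gene highest in cluster 2 was RALY, at chr20:33993646-34108308, far shorter than MACROD2. Over all measured genes these clusters were highest for 23.4%, 15.0% and 24.9%. The median log2 difference of the long genes in cluster 2 was -2.37. Genes in a list can share a window, so these counts are not independent of the arms described above.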

How the data were processed

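RNA and ATAC of the same nuclei were analysed from the 80% portion, with the 20% portion for comparison. The authors deposited whole-number counts without normalization, UMIs per gene and ATAC counts per peak, for barcodes they had called as cells. Per the submitters' processing notes they used Cell Ranger ARC 2.0.0 and the hg38 build. The gene annotation, and whether ATAC counts are fragments or their ends, are not given in the sources used here. A matrix of both portions and a file of long-read statistics were not used here. There were 0 columns of per-sample values without a sample.

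UMIs of genes outside chromosome 20 were log-normalized and reduced to principal components with Scanpy 1.11.5, and nuclei were clustered by Louvain in Seurat 5.3.0 (R 4.3.3), with the resolution raised until 5 clusters, the number of lines, appeared. Scrublet made 385 doublet calls, which were kept except in an alternative. Each nucleus of the 20% portion was given to the cluster with the closest mean profile by correlation. Applied to the 80% portion itself, this gave back the original cluster for 97.3% of nuclei. Counts were summed per cluster, and a log2 difference divides the share of a cluster by the mean of the other 4 shares. Shares carry exact binomial and CPM exact Poisson 95% intervals. Windows of 2 Mb needed 5 peaks or 3 genes and 100 counts in each cluster. Peaks within 1000 bp of a GENCODE v44 transcript start counted as near a start, where 36366 of 36601 genes were matched by ID, since the deposited gene intervals can span a whole gene. Deposited starts were read as counted from 0 and are printed from 1.

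Named were, in each cluster, the 2 restricted peaks and the 2 restricted genes with the widest fold over the next cluster, the 2 highest and 2 lowest ATAC windows, and the 3 peaks with the most counts. Of these peaks, 1 in cluster 2 is not reported here. Members, gene lists and rules were chosen with earlier results of these data known. Which listed genes and which MACROD2 stretches to describe was decided with their values in view. CPM scale the counts of each cluster to a common total. The functions were tested on simulated data with known gains.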

Additional observations from a re-analysis of the deposited data

How the results depend on the processing

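Of 139 alternative values, 91 stayed within 1.5 times a count or within the interval of a value, and 48 moved. That interval covers counting error, except for the r of ATAC and RNA windows. For r it was 0.73 to 0.85 and treats the 145 pairs of a window and a cluster as independent. The pairs are not independent, so whether r stayed or moved is only a rough label. The alternatives included further random seeds of the clustering, which returned nearly the same clusters. Values from those seeds are among those that stayed and tell little beyond the main ones. Only the r of ATAC and RNA windows could change sign, and it did so in 0 cases. The other values are counts, shares and ranges, which have no sign to change. Single differences did change sign: 20q in cluster 3 went from -0.10 to 0.07 in ATAC with the median as the base. In RNA it went from -0.06 to 0.09. The cause of a move was not tested unless the alternative itself sets it. No paired analysis was possible because each portion gave a single library of each kind. The count of window differences past 1.5-fold, 45 in ATAC and 39 in RNA over the 5 clusters, became 93 and 73 in 1 Mb windows and 13 and 12 in 5 Mb windows, which differ in number by construction. Among the alternatives counted as staying, ATAC ran from 33 with only peaks near starts to 55 without them. RNA ran from 26 without the most variable genes, at the edge of the 1.5 limit, to 45 without doublet calls. The r of ATAC and RNA windows, 0.80, was 0.91 in 5 Mb windows, 0.87 without the most variable genes and 0.88 in the 20% portion. The ATAC share of chromosome 20, 3.26%, was 3.51% without peaks near transcript starts, 3.02% with only those and 3.25% in the 20% portion, and the RNA share, 2.49%, was 2.49% without doublet calls and 2.56% in the 20% portion. Restricted peaks numbered 335, 159 with each nonzero ATAC value taken as 1 and 946 at a 2-fold limit.

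The range of 20q ATAC differences over clusters, 1.44, was 1.51 without doublet calls, 1.57 without and 1.33 with only peaks near starts, 1.38 with each nonzero value taken as 1, 1.37 without restricted peaks, 1.59 as the median over peaks and 1.59 after centring on all windows. It was 1.18 against the median share of the other clusters, and 1.43 and, without shared barcodes, 1.42 in the 20% portion. The range on 20p, 0.85, was 0.91 without doublet calls, 0.98 without and 0.74 with only peaks near starts, 0.80 with values taken as 1, 0.81 without restricted peaks, 0.65 as the median over peaks and 1.00 after centring. It was 0.81 and, without shared barcodes, 0.80 in the 20% portion. The medians over peaks in these ranges also took in peaks with fewer than 200 counts. They are therefore not the medians of single peaks given above and do not give the same ranges. In RNA the range of 20q, 1.23, was 1.30 without doublet calls, 1.25 without the top gene of each window, 1.14 without the most variable genes, 1.30 after centring and 1.02 against the median share. That of 20p, 0.72, was 0.77 without doublet calls, 0.76 without the most variable genes, 0.79 after centring, 0.73 against the median share and 0.68 in the 20% portion. Alternatives added after seeing the data were 6 clusters, the 20% portion without shared barcodes, and the removal of peaks from 25 to 31 Mb. With 6 clusters the ranges were 1.38 and 0.81 in ATAC and 1.18 and 0.70 in RNA for 20q and 20p, and without the peaks from 25 to 31 Mb the 20p range was 0.87.

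With 1 library per portion, no value here separates a difference between lines from one between cultures. Depth limits cluster 4 and the 20% portion most, where few peaks pass 50 counts. Clusters were matched to lines from markers of 2 lines only.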
